A study of Sus scrofa with 48 samples.

Results

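Gene expression in fat was compared with that in liver in gilts (young female pigs) that had been fed. These were 12 of the 24 gilts of the study, and their 12 fat arrays and 12 liver arrays made up 24 of 48 arrays in all. The labels do not name the fat depot. The members were chosen by label: every array of a gilt with free access to feed, paired within gilt by genotype and replicate number. The groups were fat of N298 gilts, fat of D298 gilts, liver of N298 gilts and liver of D298 gilts, with 6 arrays each. N298 gilts were homozygous for the variant allele of the melanocortin 4 receptor gene MC4R, a brain receptor that restrains appetite, and D298 gilts were homozygous for the wildtype allele. All were Yorkshire gilts, 6 months old, bred in a line with low residual feed intake, meaning that such pigs eat little for their growth. The ad libitum period that preceded sampling was 3 days, and the gilts not described here were fasted for the same 3 days. With 24 gilts and 48 arrays, an array number within a genotype was taken to mean the same gilt in both tissues.

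Adipose tissue stores triglyceride in lipid droplets, releases it by lipolysis and secretes hormones such as leptin and adiponectin. Liver makes most plasma proteins, forms bile acids and urea, clears foreign compounds and supplies glucose and ketone bodies to the blood. In the pig, unlike the mouse or the human, adipose tissue and not liver is the main site of fatty acid synthesis from glucose carbon, and the brown fat uncoupling protein gene is disrupted. Each measurement was the MAS5 signal of a probe set, a linear brightness that the authors scaled so that the trimmed mean of every array is 500. A difference is given as log2 of the fat signal minus log2 of the liver signal over 12 gilts, so that 1 means 2-fold and a negative value means lower in fat. A probe set or gene was called at a Benjamini-Hochberg adjusted p under 0.05 in limma with at least a 2-fold difference. Where 3 signals are given for a tissue they are the lowest, the median and the highest of its 12 arrays. Since these are bulk samples, fewer cells of a type and less RNA per cell cannot be told apart.

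Some fat arrays stood apart before any comparison was made. The fat arrays of N298 replicate 3, N298 replicate 6 and D298 replicate 4 carried hepatocyte transcripts: ALB, serum albumin, had signals of 9507, 9282 and 7463 there and 105.2 to 259.0 on the other 9 fat arrays, against 35472 to 54548 on the 12 liver arrays. Of 14 measured hepatocyte markers, 13 were higher on each of those 3 fat arrays than on every one of the other 9. The exception was APOA1, the main protein of high density lipoprotein, at 3328 to 5068 on the 3 arrays and 3674 to 5758 on the other 9. Skeletal muscle transcripts also varied: the mean log2 signal of 9 muscle markers ran from 4.19 to 12.79 among the fat arrays, against 3.50 to 4.92 among the liver arrays. It exceeded 10 on 6 fat arrays, among them the 3 with hepatocyte transcripts. The 6 macrophage markers were highest in the fat of N298 replicate 1, at a mean log2 of 10.23. The fat of D298 replicate 1 had the lowest mean log2 signal over 13 fatty acid synthesis genes, 10.78, against 11.26 to 11.96 on the other 11 fat arrays. What each of these contributes to a difference was not tested beyond the values without the arrays concerned. Those values are given beside some of the results they move. Differences of other liver genes, such as TF, HPX, FGG and CPS1, are given on all arrays only. TF had signals of 1600 to 2600 on the 3 arrays with hepatocyte transcripts and 21.3 to 235.1 on the other 9 fat arrays.

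**Figure D1:**
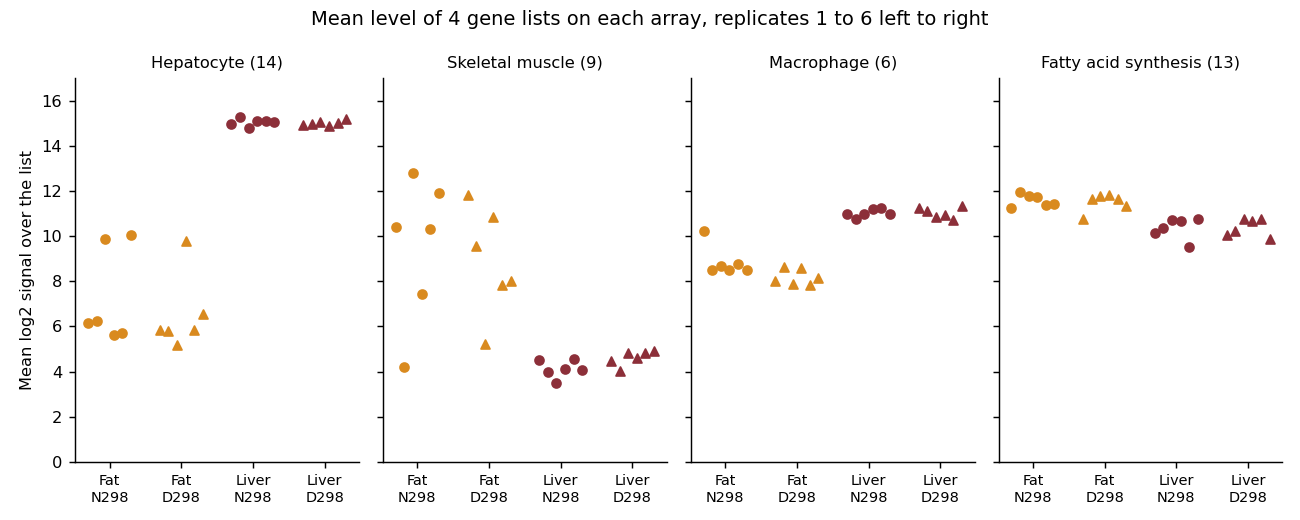
Mean log2 signal over 4 gene lists on each of the 24 arrays of fed gilts (vertical axis), with fat left of liver and N298 left of D298. Each point is 1 array in replicate order: 3 fat arrays stand between 9.78 and 10.06 for hepatocyte genes, the fat arrays spread from 4.19 to 12.79 for muscle genes, and the fat of N298 replicate 1 is highest of the fat arrays for macrophage genes.

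Fat and liver differed over a large part of the array. Of 23935 probe sets tested, 7657 were called (32%), 4843 higher in fat (20.2%) and 2814 lower in fat (11.8%). Of 6765 genes, each taken by its brightest probe set, 1189 were higher in fat (17.6%) and 972 lower (14.4%). The counts given below for each list of genes are to be read against these shares. The largest differences lay on the lower side: 213 genes were lower in fat by at least 16-fold and 95 higher by as much, and 63 were lower by at least 256-fold against 8 higher. Correlations of log2 signals were at least 0.916 among fat arrays, at least 0.907 among liver arrays and 0.731 to 0.799 between the tissues, over all probe sets of these scaled arrays. The median difference over all probe sets was 0.21, and the median signal was 160 to 176 on fat arrays and 123 to 149 on liver arrays at the same trimmed mean. With each array centred on its median the split became 3447 higher and 3893 lower, or 47.0% higher in place of 63.2%, while 0 calls changed direction. The brightest 100 probe sets held 13.5% ± 0.79 of the summed signal in fat and 15.6% ± 1.0 in liver (SD, n = 12 each).

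Genes of the adipocyte were among those with the largest differences toward fat. Of 7 measured adipocyte markers 7 were higher in fat, with a median difference of 8.22 against 0.17 over all genes. LIPE, hormone-sensitive lipase, which cleaves stored lipid, had signals of 6478, 8423 and 10604 in fat, against 3.44, 5.48 and 16.2 in liver. No liver array came near any fat array, and the difference of 10.42 (SE 0.15, adjusted p = 4.21e-18) was the largest toward fat of any gene named here. ADIPOQ, the hormone adiponectin, gave 15099, 25861 and 29426 in fat, against 24.3, 48.7 and 128.3 in liver, with a difference of 8.99 (SE 0.18, adjusted p = 1.12e-16). FABP4, the fatty acid carrier of fat cells, had 16973, 21206 and 26072 in fat, against 5.57, 56.0 and 301.5 in liver, a difference of 8.67 (SE 0.35, adjusted p = 7.01e-13). PPARG, the master regulator of fat cell formation, and LPL, lipoprotein lipase, differed by 8.22 and 8.05 (SE 0.33 and 0.25). CIDEA, a protein of the lipid droplet surface, differed by 7.95. For all of these the fat and liver signals did not overlap. The file holds no detection calls, and liver signals of 5 to 60 lie near the dim end of an array, whose 5th percentile is about 5. Adding 32 to every signal brought the LIPE difference to 7.77 and that of ADIPOQ to 8.23, so sizes at this end are set partly by the dim side.

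Others among the 12 largest differences toward fat were not adipocyte lipid genes. MFAP5, a microfibril protein of connective tissue, differed by 9.03, and LUM, the matrix proteoglycan lumican, by 7.10. F2RL2, a protease-activated receptor, differed by 8.55 with signals of 5733, 8361 and 11853 in fat, against 1.92, 26.6 and 65.4 in liver. SAL1, a salivary lipocalin of the pig, reached 2539, 14521 and 19521 in fat, against 5.64, 42.9 and 72.7 in liver, a difference of 8.55 (SE 0.33, adjusted p = 3.08e-13). RBP7, a retinol binding protein, differed by 7.84. CILP, a cartilage matrix protein, differed by 6.93 and by 5.74 without the 6 fat arrays that held the most muscle transcripts, and a dimmer probe set of it was not called at 0.064.

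Fatty acid synthesis genes were mostly higher in fat, while the desaturases of polyunsaturated fatty acids were lower. Of 13 measured genes 8 were higher, 2 lower and 3 not called, with a median of 1.61. ME1, malic enzyme, which supplies NADPH for synthesis, had the largest difference of the list: 5898, 16563 and 25043 in fat, against 158.7, 263.2 and 425.1 in liver, or 5.98 (SE 0.19, adjusted p = 2.59e-14). ACACA, acetyl-CoA carboxylase, gave 99.9, 486.7 and 794.0 in fat, against 11.4, 45.7 and 127.8 in liver, a difference of 3.19 (SE 0.32, adjusted p = 1.47e-07). The ranges of ACACA overlapped, the lowest fat array being that of D298 replicate 1, and a dimmer probe set of the gene differed by -0.27 and was not called. FASN, fatty acid synthase, was bright in both tissues at 14224, 21978 and 24665 in fat, against 2736, 5953 and 9136 in liver, with 1.92 (SE 0.12, adjusted p = 3.68e-10). SCD, which places the first double bond, and ELOVL6, which lengthens palmitate, differed by 1.29 and 2.18. SCD was just under the 2-fold line at 0.996 after centring. Other probe sets of ELOVL6, also bright in fat, gave larger differences of 4.12, 4.38 and 4.69, and those of FASN gave 3.18, 3.28 and 1.18. SLC25A1, the mitochondrial citrate carrier, differed by 1.61. Among enzymes of the pentose phosphate path, PGD differed by 3.37, TKT by 2.03 and TALDO1, which was outside the list, by 1.55. FADS1 and FADS2, the delta-5 and delta-6 desaturases, ran the other way by -4.01 and -4.12. FADS1 had 51.4, 89.1 and 117.7 in fat, against 363.3, 1516 and 2998 in liver, with every fat array below every liver array.

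**Figure D2:**
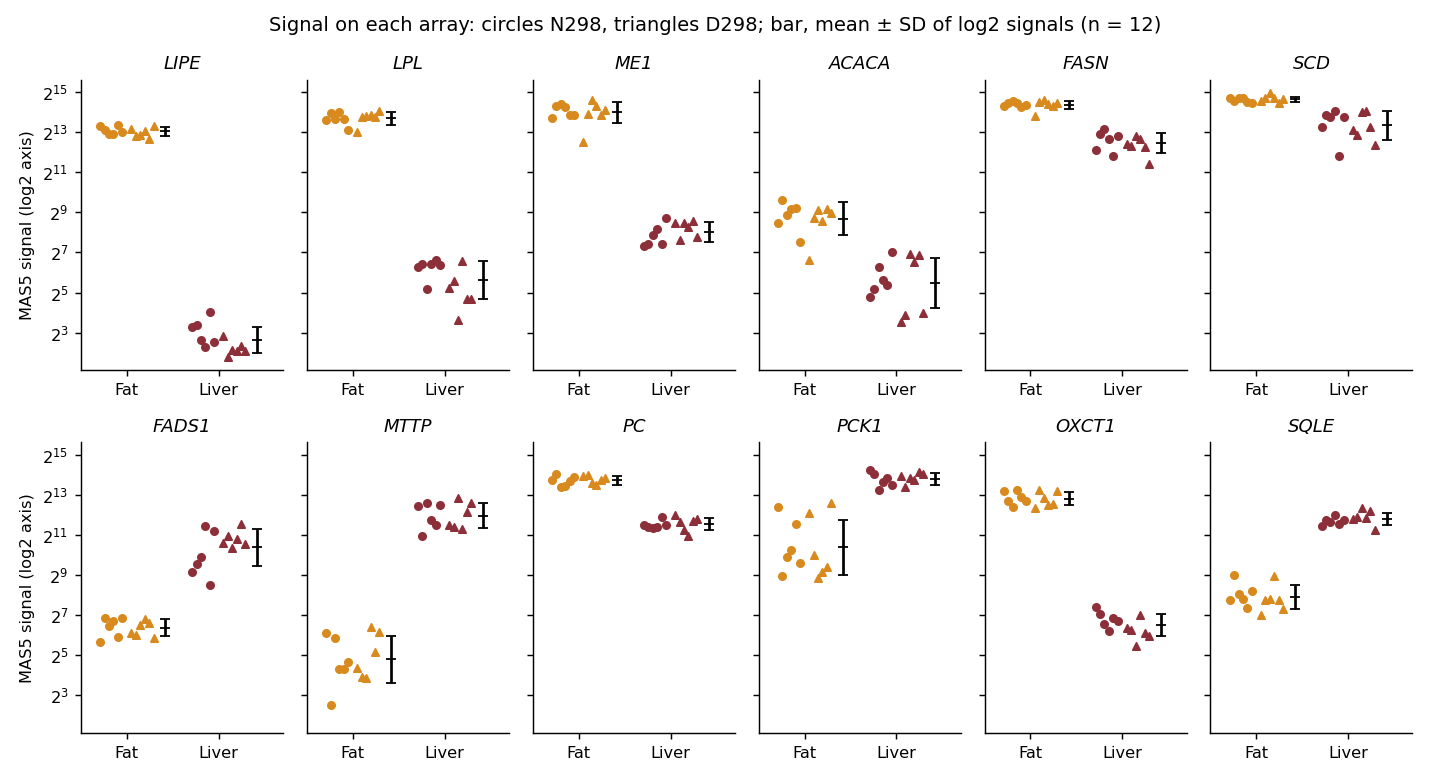
MAS5 signal (log2 axis) of 12 genes on each array of fed gilts, fat left of liver. Circles are N298 and triangles D298 gilts, and the bar at the right of each group is the mean ± SD of 12 log2 signals. LIPE, LPL, ME1, FASN, SCD, PC and OXCT1 are above liver on every fat array, ACACA overlaps, and FADS1, MTTP, PCK1 and SQLE are below liver on every fat array.

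In the fat of D298 replicate 1 several of these genes were low together: ME1 was at 5898 there and at 13430.5 to 25043 on the other 11 fat arrays, FASN at 14224 against 19424 to 24665, and SLC25A1 at 5623 against 10336 to 17791. Without that gilt the list still had 8 genes higher and 2 lower, and the difference of ME1 was 6.15.

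Lipid uptake, droplet and triglyceride genes differed in both directions. Of 17 measured genes of uptake and triglyceride assembly 6 were higher in fat, 6 lower and 5 not called, with a median of 0.22. GPIHBP1, which holds lipoprotein lipase on the capillary wall, and AGPAT1, an enzyme of phosphatidic acid formation, differed by 3.25 and 4.52. DGAT2, which adds the last fatty acid to triglyceride, differed by 1.87, and DGAT1, with the same reaction, by 0.22 and was not called. LPIN1 was higher in fat by 2.07 and LPIN2, a related phosphatidate phosphatase, lower by -5.31. MTTP, which loads lipid onto apolipoprotein B for secretion, had 5.63, 22.9 and 83.4 in fat, against 2000.3, 3980.2 and 7449 in liver, a difference of -7.17 (SE 0.26, adjusted p = 1.36e-13). Among 13 droplet and lipolysis genes 9 were higher and 1 lower, with a median of 1.25. MGLL, monoglyceride lipase, differed by 4.92. CIDEB, the droplet protein known from hepatocytes, was the 1 lower at -7.65, while the related CIDEA was higher as given above. PLIN2, a coat protein of small droplets, was higher by 1.09, which was 0.80 and not called after centring.

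Secreted factors and transcription factors were likewise mixed. Among 8 adipokines and secreted proteins 3 were higher, 2 lower and 3 not called, with a median of 0.35. LEP, leptin, had 125.2, 384.7 and 1060.4 in fat, against 14.7, 56.6 and 116.0 in liver, and differed by 3.01 (SE 0.33, adjusted p = 3.14e-07) with no overlap. Its other probe set differed by 7.29, with a mean log2 signal of 9.31 in fat and 2.03 in liver. CFD, complement factor D or adipsin, differed by 1.64. RARRES2, the adipokine chemerin, was lower in fat at 1023, 1737 and 2648 in fat, against 16562, 18353 and 21386 in liver, a difference of -3.52 (SE 0.10, adjusted p = 6.34e-15). NAMPT, an enzyme of NAD formation also known as visfatin, was lower by -1.57. Of 13 adipogenic transcription factors 5 were higher and 3 lower, with a median of 0.42. KLF4, RXRG and TCF7L1 were higher by 4.20, 2.76 and 2.48. NR1H3, a sterol receptor, and KLF15 were lower by -1.76 and -1.53. Among 7 hepatic transcription factors 5 were lower in fat, 1 higher and 1 not called, with a median of -5.59. HNF4A, a nuclear receptor central to hepatocyte identity, had 82.2, 124.4 and 207.3 in fat, against 5025, 6135 and 10316 in liver, or -5.66 (SE 0.13, adjusted p = 3.89e-16). FOXA1, FOXA2 and NR1I2, the last a sensor of foreign compounds, differed by -5.59, -6.55 and -5.98. CEBPA, which acts in both cell types, was higher in fat by 1.03, just past the 2-fold line. Its call was lost in 8 of 20 alternatives tried, and a second probe set of it differed by -0.81. PPARA was not called at 0.93, while a dimmer probe set was called lower in fat at -2.82.

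Plasma protein genes were among the most strongly lower in fat. Of 20 carriers and protease inhibitors 18 were lower in fat, 0 higher and 2 not called, with a median of -7.52, or -8.10 without the 3 fat arrays that carried hepatocyte transcripts. SPP2, a secreted phosphoprotein outside the list, had 2.32, 3.65 and 156.9 in fat, against 20921, 26908 and 29922 in liver, with a difference of -11.60 (SE 0.59, adjusted p = 1.26e-11). TTR, transthyretin, gave 11.5, 34.9 and 538.4 in fat, against 29733, 35163 and 40755 in liver, a difference of -9.25 (SE 0.46, adjusted p = 1.03e-11) and of -10.25 without the 3 arrays. ALB differed by -6.63 (SE 0.64, adjusted p = 7.68e-08) and by -8.12 without them, and AMBP, SERPINA1 and GC by -9.32, -9.39 and -9.88 against -10.59, -10.45 and -11.29. A1BG and SERPINA3-2, also plasma proteins, were among the 12 largest at -10.15 and -9.95. For each of these genes every fat array, the 3 included, was below every liver array. The 12 largest differences toward liver were those of SPP2, HPD, BHMT, APOC2, MAOB, A1BG, PROC, PLG, FABP1, SERPINA3-2, APOB and HRG. They ran from -11.60 to -9.89 on all arrays, from -12.95 to -10.41 without the 3 arrays, and from -8.98 to -7.93 with 32 added.

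Of 17 apolipoprotein and lipid transfer genes 13 were lower in fat and 1 higher, with a median of -5.98. APOC2, the cofactor of lipoprotein lipase, and APOB, the backbone of very low density lipoprotein, differed by -10.50 and -9.95, against -11.76 and -10.97 without the 3 arrays. APOA2 and APOH differed by -9.11 and -8.96. APOA1 gave 3328, 4429 and 5758 in fat, against 33388, 38605 and 44857 in liver, a difference of -3.15 (SE 0.08, adjusted p = 9.54e-16), and -3.16 without the 3 arrays, and its fat signals spanned less than 2-fold. APOD, a lipocalin made in many tissues, was the 1 higher, at 1692, 4669 and 13948 in fat, against 13.6, 62.2 and 133.2 in liver, or 6.48 (SE 0.30, adjusted p = 3.62e-12).

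Coagulation genes differed in both directions. Of 18 measured 12 were lower in fat and 6 higher, with a median of -7.20. PROC, protein C, PLG, plasminogen, HRG, a histidine-rich plasma protein, and FGG, the gamma chain of fibrinogen, were lower by -10.11, -10.07, -9.89 and -9.73. F3, tissue factor, which starts clotting from outside the vessel, was higher in fat at 1480.3, 2936 and 7227 in fat, against 8.38, 106.2 and 194.5 in liver, or 5.50 (SE 0.37, adjusted p = 6.54e-10). PLAT, the plasminogen activator of vessel walls, and VWF, von Willebrand factor of endothelium, were higher by 3.95 and 3.40. The 2 dimmer VWF probe sets differed by 0.18 and 0.11 and were not called. Of 22 complement genes 21 were lower in fat, with a median of -4.77, and CFD was the exception. C8A, of the membrane attack complex, and CFB, factor B, differed by -8.33 and -7.35, and C8G and C4BPB by -7.84 and -8.26. C1QA and C1QC, subunits of C1q made by macrophages, were lower by -2.45 and -2.74.

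Bile acid, detoxification, urea and amino acid genes were lower in fat throughout most of their lists. Among 8 bile acid genes 7 were lower and 0 higher, with a median of -4.37. CYP7A1, the rate-limiting enzyme of bile acid synthesis, had 22, 48.2 and 84.5 in fat, against 140.0, 2023 and 7987 in liver. The liver array of D298 replicate 1 was the lowest liver array at 140.0, still above every fat array, and the difference was -5.19 (SE 0.41, adjusted p = 5.07e-09). SLC10A1 and ABCB11, which carry bile acids into and out of hepatocytes, differed by -9.29 and -8.88, and ABCC2, an exporter of conjugates, by -5.65. Of 29 genes of foreign compound metabolism 22 were lower and 0 higher, with a median of -3.87. GSTA1, a glutathione transferase, CYP3A39, a cytochrome P450, SULT1E1, estrogen sulfotransferase, and UGT2B31, a glucuronosyl transferase, differed by -9.70, -9.59, -9.37 and -9.30. Signals of close paralogs within these families cannot be fully told apart on an array.

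Of 7 urea cycle and glutamine genes 6 were lower, with a median of -5.60. OTC, ornithine transcarbamylase, ARG1, arginase, and CPS1, which forms carbamoyl phosphate, differed by -9.65, -8.71 and -8.52. ASS1, argininosuccinate synthase, was measured at 286.9, 518.8 and 727.0 in fat, against 18089.5, 24314 and 32034 in liver, or -5.60 (SE 0.13, adjusted p = 7.39e-16), the fat signal being well above the dim range. Of 21 amino acid genes 14 were lower and 3 higher, with a median of -4.77. HPD, of tyrosine breakdown, had 1.09, 2.54 and 42.5 in fat, against 11297, 14063 and 18036 in liver, a difference of -11.57 (SE 0.49, adjusted p = 1.10e-12). BHMT, which remethylates homocysteine, GNMT, which uses S-adenosylmethionine, and TAT, tyrosine aminotransferase, differed by -11.22, -9.40 and -9.25. MAOB, a monoamine oxidase outside the lists, was among the 12 largest at -10.17. PSPH, the last step of serine synthesis, was higher in fat at 1395, 2811 and 4219 in fat, against 95.1, 226.2 and 460.1 in liver, or 3.71 (SE 0.19, adjusted p = 1.47e-11). BCAT2, the mitochondrial branched-chain aminotransferase, was higher by 2.73.

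Most genes of glucose release were lower in fat, and more genes of glucose uptake and breakdown were higher than lower. Of 11 gluconeogenesis and glycogen genes 8 were lower and 3 higher, with a median of -1.96. FBP1, fructose bisphosphatase, gave 801.0, 1259 and 1671 in fat, against 16764, 21986 and 25208 in liver, or -4.14 (SE 0.09, adjusted p = 2.17e-16). SLC37A4, the glucose 6-phosphate transporter, was lower by -3.24. PCK1, cytosolic phosphoenolpyruvate carboxykinase, which in fat cells makes glycerol phosphate, had 467.8, 978.9 and 6158 in fat, against 9703, 14606 and 19214 in liver, a difference of -3.41 (SE 0.31, adjusted p = 3.32e-08). Its fat signals were uneven, at 5320.0 and 2966 in N298 replicates 1 and 5, 4335 and 6158 in D298 replicates 1 and 6, and 467.8 to 1215 on the other 8. PC, pyruvate carboxylase, was higher in fat at 10883, 13486 and 17038 in fat, against 1956, 2917 and 4012 in liver, a difference of 2.20 (SE 0.07, adjusted p = 5.05e-14) with no overlap. GYS1, glycogen synthase of muscle and other tissues, was higher by 1.85.

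Of 21 genes of glucose uptake and glycolysis 11 were higher and 2 lower, with a median of 1.10, and 7 were higher after centring. ALDOC, an aldolase, had 8586, 10523 and 13600.4 in fat, against 71.5, 121.8 and 193.3 in liver, or 6.46 (SE 0.13, adjusted p = 9.24e-17). SLC2A5, a fructose transporter, differed by 5.46, HK1, hexokinase, by 2.76 and LDHB, a lactate dehydrogenase subunit, by 2.07. ENO3, the muscle enolase, differed by 5.99, and by 3.75 without the 6 fat arrays with the most muscle transcripts. LDHA differed by 1.11 and by 0.96 without them, where it was no longer called. KHK, which phosphorylates fructose, and SLC2A2, the glucose transporter of hepatocytes, were lower in fat by -4.73 and -7.07. The signals of SLC2A5 were 183.0, 1514 and 2737 in fat, against 7.94, 32.7 and 60.2 in liver, and those of KHK were 115.4, 160.7 and 198.8 in fat, against 2762, 4176 and 5077 in liver.

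Among lists of mitochondrial pathways the share called varied. Of 27 oxidative phosphorylation genes 0 were called in either direction, against 1 lower after centring and 2 higher after quantile normalization, with differences from -0.73 to 0.98 and a median of 0.26. Without the 2-fold line 16 were higher and 3 lower at an adjusted p under 0.05 in limma. Over all 6765 genes 2933 were higher and 1952 lower on the same terms, and 14706 of 23935 probe sets passed in either direction. Of 20 genes of the tricarboxylic acid cycle and pyruvate dehydrogenase 6 were higher and 2 lower, with a median of 0.31. CS, citrate synthase, had 11924, 15261 and 17373 in fat, against 2271, 3018 and 4053 in liver, or 2.35 (SE 0.07, adjusted p = 5.62e-15). DLAT, of pyruvate dehydrogenase, and SUCLA2, the ATP-forming subunit of succinyl-CoA ligase, were higher by 2.32 and 2.26, and IDH3A, an isocitrate dehydrogenase subunit, by 1.55. Another IDH3A probe set, with a mean log2 signal of 8.80 in fat and 8.04 in liver, differed by 0.76 and was not called. SUCLG2, the GTP-forming subunit, and IDH2 were lower by -1.59 and -1.89. Among 22 genes of fatty acid oxidation and ketone bodies 7 were lower, 3 higher and 12 not called, with a median of -0.47. ACAA2, DECR1 and ACADM, of beta-oxidation, were lower by -1.79, -1.70 and -1.53. OXCT1, the enzyme with which tissues other than liver use ketone bodies, had 5179, 7002 and 9693 in fat, against 44.6, 88.6 and 172.3 in liver, a difference of 6.32 (SE 0.16, adjusted p = 2.18e-15). BDH1, which interconverts the ketone bodies, was lower by -3.59.

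Genes of cholesterol synthesis and uptake were mostly lower in fat. Of 12 measured genes of this list 10 were lower in fat and 0 higher, with a median of -1.97. TM7SF2, a sterol reductase, SQLE, squalene epoxidase, and MSMO1, a sterol oxidase, differed by -5.07, -3.89 and -3.37. NSDHL, a sterol dehydrogenase, and HMGCS1, a synthase early in the path, differed by -2.65 and -2.12. SQLE had 126.9, 219.6 and 517.7 in fat, against 2457, 3503 and 5133 in liver, or -3.89 (SE 0.16, adjusted p = 5.53e-13). Of 19 folding and secretion genes 4 were lower and 1 higher, with a median of -0.76, and 10 were lower after centring. PDIA4 and PDIA6, which form disulfide bonds, were lower by -2.45 and -2.04, PDIA3 by -1.61 and the chaperone HSP90B1 by -1.30. COPB2, a vesicle coat subunit, was higher by 1.45, and was at 0.85 and not called with 32 added. Its signals overlapped, at 36.9 to 158.4 in fat and 9.69 to 85.6 in liver. Of 11 iron and haem genes 7 were lower, with HAMP, the iron hormone hepcidin, at -8.38 and ALAD, of haem synthesis, at -2.73. TF, transferrin, and HPX, hemopexin, which bind iron and haem in plasma, were lower by -7.67 and -8.39.

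Matrix genes were higher in fat in 19 of 23 measured, with 1 lower and a median of 3.02. COL15A1, a basement membrane collagen, had 6997, 8705 and 9655 in fat, against 29.4, 71.5 and 185.1 in liver, or 6.91 (SE 0.20, adjusted p = 1.12e-14). DCN, decorin, and MMP2, a gelatinase, were higher by 4.49 and 4.32. A second, uncalled probe set of DCN differed by -0.77. FN1, fibronectin, which liver also secretes into plasma, was lower at 4535, 9211 and 13932 in fat, against 29677, 31714 and 38331 in liver, or -1.85 (SE 0.11, adjusted p = 7.95e-11).

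In the growth hormone and insulin list 4 of 13 were higher, 3 lower and 6 not called, with a median of 0.33. IGFBP6 and IGFBP5, binding proteins of insulin-like growth factors, were higher in fat by 5.27 and 3.02, as were AKT2, a kinase of insulin signalling, and the receptor IGF1R by 1.47 and 1.28. A dimmer IGF1R probe set was not called at -0.75. IGFBP1 and IGFALS, binding partners secreted by liver, were lower by -7.66 and -5.14. IGF1, the growth factor of the axis, had 474.0, 895.8 and 1169.9 in fat, against 334.5, 742.0 and 1573 in liver, and at 0.33 (SE 0.16, adjusted p = 0.0828) it was not called, with a 95% interval of -0.01 to 0.66. Another probe set of IGF1, with a mean log2 signal of 9.26 in fat and 8.45 in liver, differed by 0.81 and was not called. A dimmer probe set of IGF1, at 5.15 and 6.31, was called lower in fat at -1.16. IGF2 fell just short of the 2-fold line at -0.99 (SE 0.07, adjusted p = 3.10e-09). In the thermogenesis list of 10, UCP3, an uncoupling protein best known from muscle, was higher at 376.0, 577.6 and 997.4 in fat, against 4.13, 15.8 and 84.6 in liver, or 4.95 (SE 0.32, adjusted p = 3.55e-10), and at 5.25 without the 6 muscle-rich arrays. CKB, a creatine kinase, was higher by 4.13. PPARGC1A, a coactivator of mitochondrial genes, and DIO1, a thyroid hormone deiodinase, were lower by -6.52 and -6.85, and DIO2, a deiodinase that forms active hormone, by -1.56. MC4R itself had signals of 0.95, 20.3 and 41.8 in fat, against 2.02, 15.04 and 38.1 in liver, in the dim range of both tissues, and was not called at 0.48 (SE 0.69, adjusted p = 0.565).

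**Figure D3:**
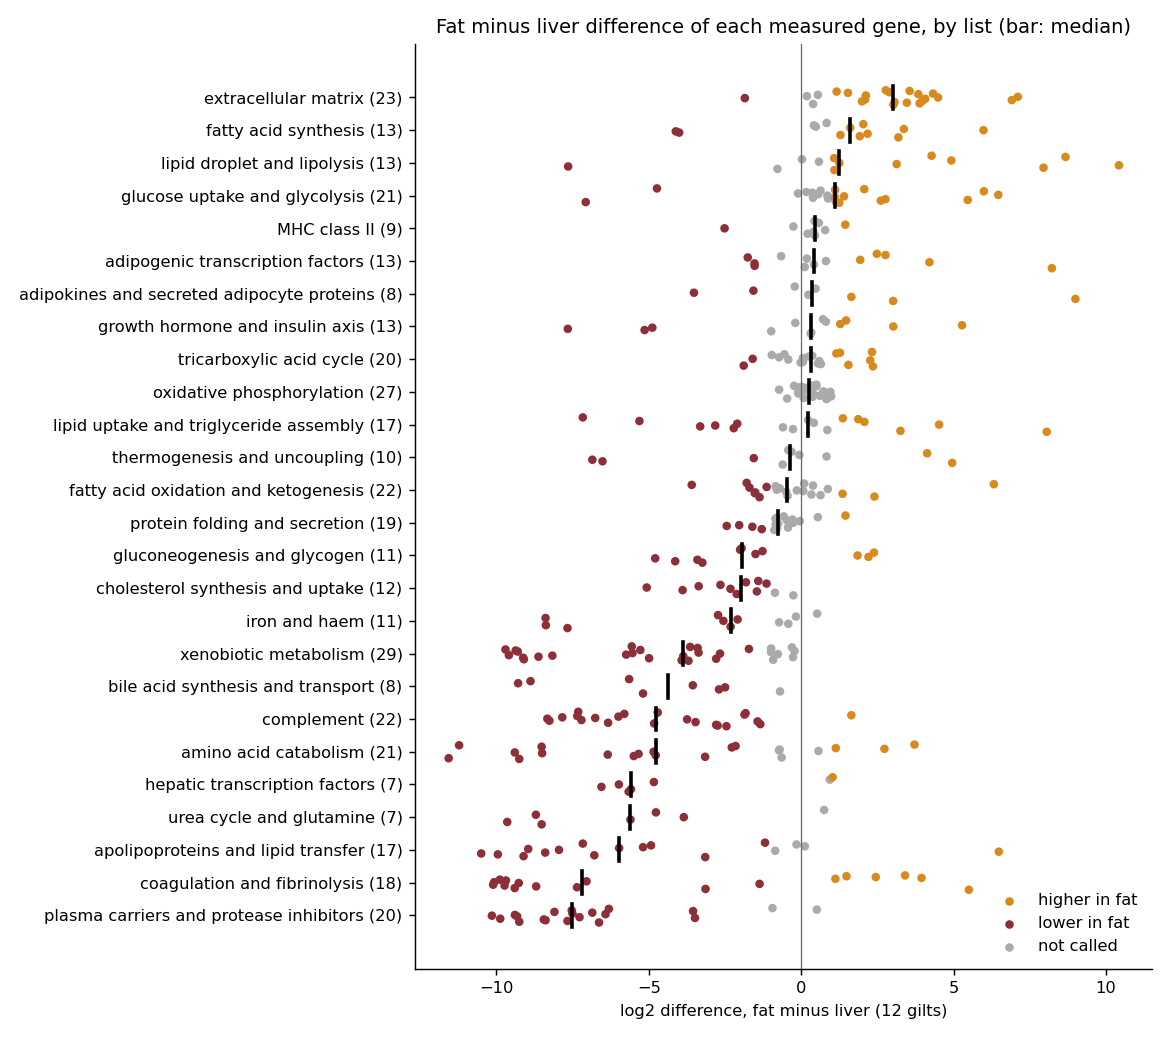
Log2 difference, fat minus liver, of every measured gene in 26 lists of function, ordered by list median from top to bottom. Each point is 1 gene over 12 gilts, coloured by call, and the bar is the list's median. Medians run from 3.02 for extracellular matrix at the top to -7.52 for plasma carriers at the bottom, and none of 27 oxidative phosphorylation genes is called.

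Markers of other cell types differed too. Endothelial PECAM1 was higher by 2.18 and 4 of 8 endothelial markers were higher, with 1 lower. That 1 was TEK at -1.20, for which a dim probe set differed by 1.38 the other way. CLDN5, of tight junctions, was higher by 2.03 and ESAM by 1.03, a call lost in 7 of 20 alternatives, with 0.74 after centring. Of 4 smooth muscle and pericyte markers 4 were higher, with RGS5 at 2.63, TAGLN at 1.91, ACTA2 at 1.57 and CNN1 at 1.41. Of 6 fibroblast markers 4 were higher, with the collagen gene COL1A2 at 3.02 and the receptor PDGFRB at 1.29, and 1 was lower, FBLN1 at -2.43. Both mast cell markers were higher, KIT by 1.49 and MS4A2 by 1.23. MS4A2 was not called after centring at 0.95, after quantile normalization at 0.97 or without the 6 muscle-rich arrays at 0.86, nor was its other probe set at 0.43. Macrophage markers were lower in fat in 5 of 6, with CD14 at -5.31 and CD163 at -2.19, and a median of -2.32. Their summed signal was 1887 to 16931 in fat, against 23151 to 38893 in liver. Without the fat of N298 replicate 1 the count stayed at 5, with CD14 at -5.47. Lymphocyte markers were lower in 2 of 7, CD3D at -1.26 and LCK at -1.10. This count was 5 after centring, 4 after quantile normalization and 0 with 32 added. Of 4 bile duct markers 2 were lower, EPCAM at -4.50 and KRT19 at -2.51, and KRT19 was at -0.95 and not called with 32 added. Of 3 keratinocyte markers 1 was lower, the desmosome gene DSP at -5.15, whose dim other probe set was not called at -0.56, and the list's median was 0.35. Of 3 erythroid markers 2 were lower, ALAS2 at -2.85 and HBM at -1.59. Neither of 2 mesothelial markers was called. Skeletal muscle markers were higher in fat in 9 of 9, with a median of 5.28, and in 7 of 9, with a median of 2.96, without the 6 fat arrays in which their mean log2 exceeded 10. MYH2, a myosin of fast fibres, had 1.31, 830.2 and 15394 in fat, against 1.45, 2.71 and 22.8 in liver, a difference of 6.82 (SE 0.93, adjusted p = 5.14e-06). TNNC2 and MYL1, also of fast fibres, and the giant sarcomere gene TTN differed by 6.67, 5.47 and 5.57, and by 3.55, 3.00 and 3.52 without the 6 arrays. For all 4 of these genes the fat and liver signals overlapped. Of 9 class II histocompatibility genes 1 was lower, SLA-DMA at -2.52, and 1 higher, SLA-DOA at 1.44. Over all genes 14.4% were lower and 17.6% higher. The call of SLA-DOA was lost with 32 added, at 0.97, and in N298 gilts alone, at 1.15. Another probe set of SLA-DMA was not called at 0.27.

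Where both tissues use a related enzyme, carrier or receptor, the members of a pair could be set side by side. Of 28 pairs listed 16 had both genes measured, and 5 were called in opposite directions, each with the first higher in fat and the second lower. These were FABP4 and FABP1, SLC2A4 and SLC2A2, LPL and LIPC, CPT1B and CPT1A, and PYGM and PYGL. FABP1, the fatty acid carrier of liver, had 4.07, 21.1 and 272.7 in fat, against 22673, 28971 and 34028 in liver, or -10.05 (SE 0.45, adjusted p = 2.82e-12). SLC2A4, the insulin-responsive glucose transporter, differed by 2.61, but 2 other probe sets of it were not called, at -0.18 and 0.73. LIPC, hepatic lipase, was lower by -4.93. CPT1B and CPT1A, the muscle and liver gates of fatty acid entry into mitochondria, differed by 2.40 and -1.37, CPT1B from dim signals in both tissues. PYGM, muscle glycogen phosphorylase, differed by 2.39 and by 1.08 without the 6 muscle-rich arrays, and PYGL, the liver form, by -1.50. The fat arrays that were kept still varied in muscle transcripts. On those lowest in muscle markers, N298 replicate 2 and D298 replicate 3, PYGM was at 144.0 and 150.1. Its liver signals were 69.5 to 155.1. The part of muscle in the PYGM difference was not tested. Other pairs moved alike or in part. MAT1A, the liver S-adenosylmethionine synthetase, was lower by -8.50, while MAT2A, its widespread counterpart, stayed under 2-fold at 0.53. ARG1 and ARG2 were both lower, at -8.71 and -4.77, as were PCK1 and the mitochondrial PCK2, at -3.41 and -4.79. PFKL was higher by 1.10 and PFKP, at 0.86, stayed under 2-fold. ACSL5, a fatty acid activating enzyme, was lower by -3.32, with ACSL4 at -0.60. BCAT1, the cytosolic partner of BCAT2, was not called at -0.71. The 3 further genes of listed pairs, whose partners were not measured here, were under 2-fold: PKM, pyruvate kinase, at 0.63, SLC27A1, a fatty acid transporter, at 0.86 and IRS1, an insulin receptor substrate, at 0.81.

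**Figure D4:**
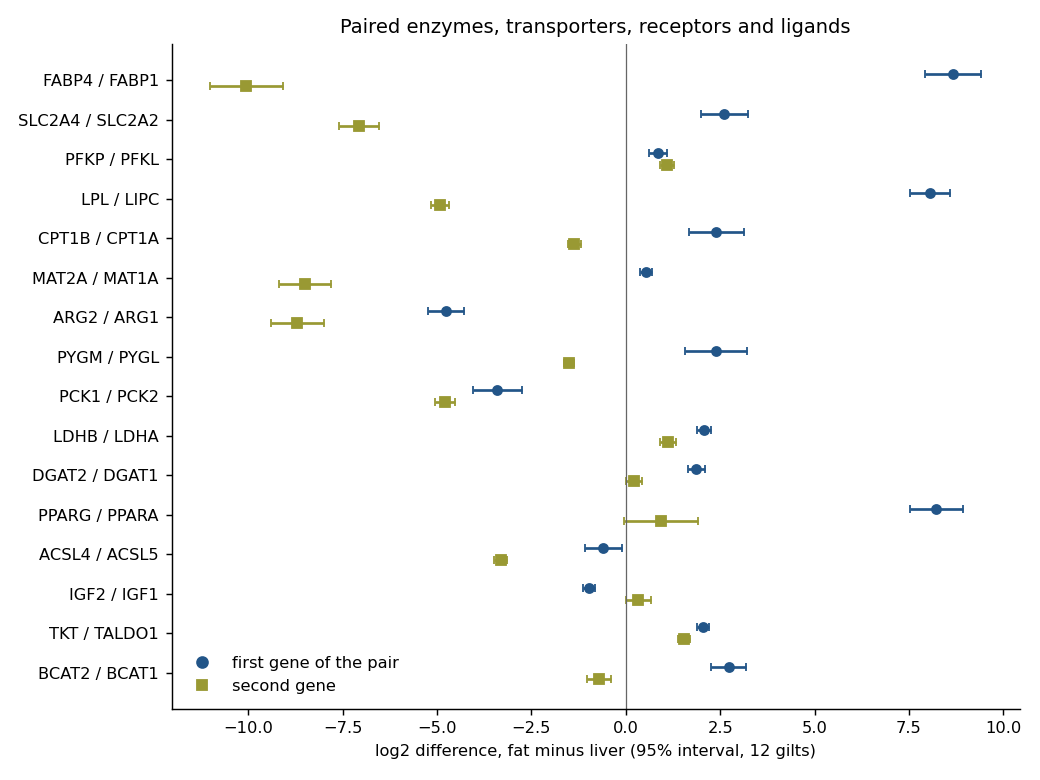
Log2 difference, fat minus liver, with its 95% interval over 12 gilts for both genes of 16 pairs. Circles are the first gene and squares the second; FABP4 and FABP1 lie farthest apart, at 8.67 and -10.05, and TKT and TALDO1 lie on the same side.

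The receptor genotype was compared through the same difference. The term for N298 minus D298 of the fat minus liver difference had 0 of 23935 probe sets at an adjusted p under 0.05 (0%), with 1197 at an unadjusted p under 0.05 and a smallest adjusted p of 0.957 in limma. The 1197 are about the share of 0.05 that is expected under the unadjusted line where no probe set differs. Among genes of smallest p, TAGLN, a smooth muscle protein, had a difference of 1.52 in N298 gilts and 2.30 in D298 gilts. MGLL had 4.54 in N298 gilts and 5.30 in D298 gilts, LXN, a carboxypeptidase inhibitor, 1.54 and 2.42, SQOR, a sulfide oxidising enzyme, -0.36 and -0.95, and MLN, motilin, -2.07 and 0.72. The MLN values rest on dim signals in both tissues, at 5.29 to 66.1 in fat and 13.1 to 66.9 in liver. With 6 gilts a genotype these genes did not pass the test, which does not show that the genotypes were alike. For TAGLN the term was -0.78 (SE 0.17). TAGLN was picked here for its small p, which the SE does not allow for, and its term did not pass adjustment.

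Whether the tissue difference depended on feeding was tested with the 24 arrays of fasted gilts added. The term for fed minus fasted of the fat minus liver difference was called for 776 probe sets (3.24%), 359 with a positive term, fat standing higher relative to liver in fed than in fasted gilts, and 417 with a negative one. The sides depended on the scaling: after centring 566 were positive and 236 negative, and with 32 added 289 and 179. SLC25A1 had a tissue difference of 1.61 in fed gilts and -1.72 in fasted gilts, so its order between tissues was reversed. Its fat signals were 5623, 13076 and 17791 in fed gilts and 1334, 1735 and 2178 in fasted gilts, while its liver signals were 3210, 4424 and 5062 in fed gilts and 3593, 5669 and 7828 in fasted gilts. CKB differed by 4.13 in fed gilts and 0.52 in fasted gilts, and PGLYRP2, which cleaves bacterial peptidoglycan, by -1.82 and -5.63. DGAT2 differed by 1.87 in fed gilts and -0.02 in fasted gilts, ELOVL6 by 2.18 and 0.54, and LDHB by 2.07 and 0.34. SQLE had a negative term, at -3.89 in fed gilts and -1.35 in fasted gilts, with liver signals of 2457, 3503 and 5133 in fed gilts and 162.2, 437.2 and 762.9 in fasted gilts. HMGCS1 had -2.12 in fed gilts and 0.33 in fasted gilts. CYP2B22, a cytochrome P450, had -0.92 in fed gilts and 2.79 in fasted gilts. The remaining genes of largest term were KCNIP2, a potassium channel partner, and CYP2C36, with positive terms, and IL6R, the interleukin 6 receptor, AKAP1, a mitochondrial anchor protein, and TXLNB, a muscle protein, with negative ones. CYP2C36 was lower in fat in both states, with a median signal of 18.0 in fat and 135.1 in liver of fed gilts, and 21.8 in fat and 1635 in liver of fasted gilts. All 5 rested on dim signals in at least one of the 4 groups. IL6R, AKAP1 and TXLNB were dim in all 4, with group medians of 3.95 to 25.8, 6.38 to 54.6 and 1.17 to 14.5. Group medians of KCNIP2 ran from 4.01 to 98.2. Among the genes named here 36 passed this test, 22 with a positive term and 14 with a negative one. They include the 5 genes each way that were named for the largest terms of this same test. The 36 are therefore not to be read against the 3.24% of all probe sets.

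**Figure D5:**
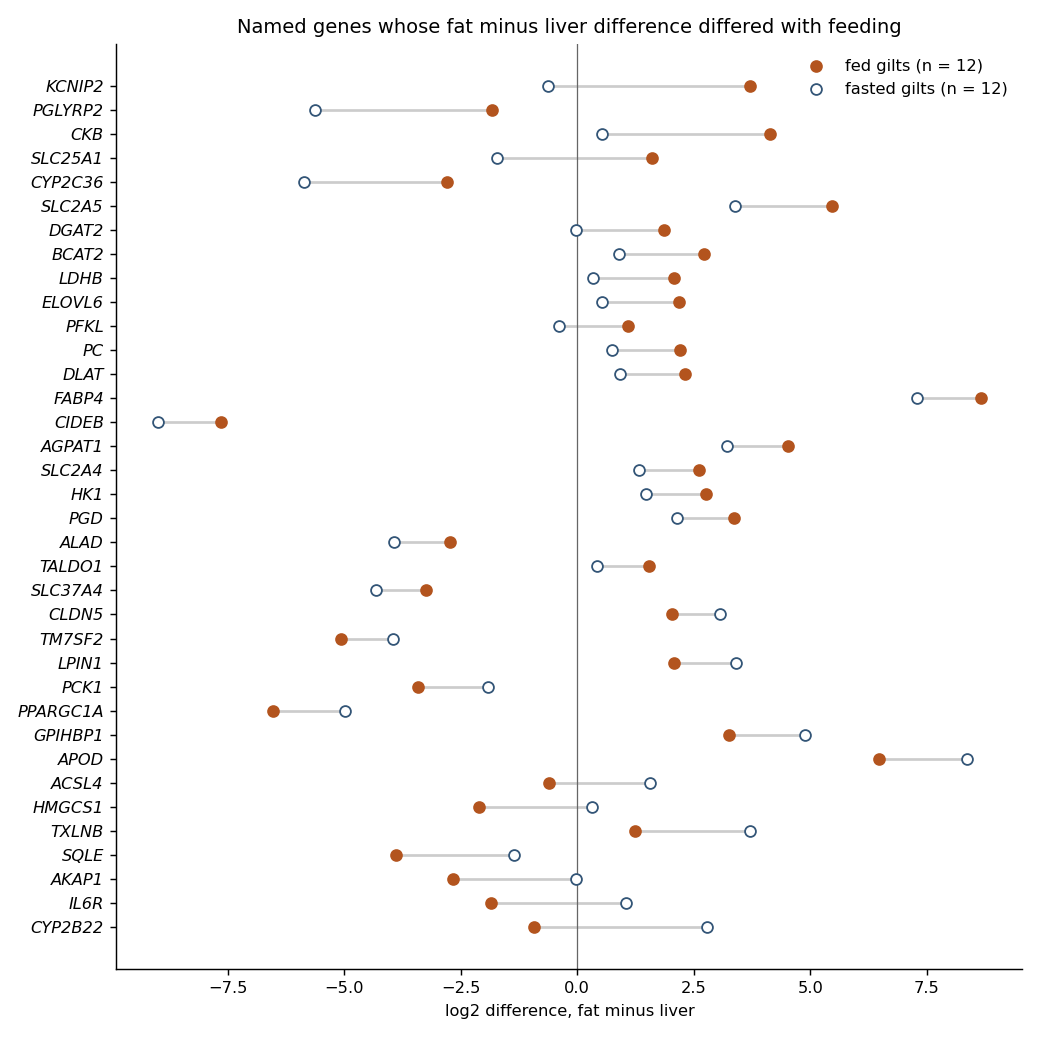
Log2 difference, fat minus liver, in fed gilts (filled) and fasted gilts (open), 12 gilts each, for the 36 genes named here whose difference changed with feeding, ordered from the largest positive fed minus fasted term at the top to the most negative at the bottom. SLC25A1 lies at 1.61 in fed gilts and -1.72 in fasted gilts, on opposite sides of 0.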

How the data were processed

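RNA of fat and liver was hybridised to Affymetrix porcine arrays, 1 array per tissue and gilt. The deposited values are MAS5 signal intensities on a linear scale, scaled to a trimmed mean (2% off each end) of 500; the affy package and MAS5 are named per the submitters' processing notes, without versions, and a genome build is not given in the sources used here. Log2 of the intensity was taken with nothing added. Of 24123 probe sets 188 control and reporter probe sets were left out, and all other 23935 were tested, dim ones included. The annotation gave 1 symbol for 10069, several for 198 and none for 13668; 9961 matched a RefSeq gene ID and 0 symbols changed. For 6765 genes the probe set with the highest mean log2 signal on the 24 arrays stood for the gene; 2261 of them had more than 1.

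The limma package, version 3.58.1 under R 4.3.3, with lmFit and a trended eBayes, fitted fat minus liver with the gilt as a block of 12 pairs, its interaction with genotype, and, on 48 arrays, with feeding. All tests were 2-sided, with Benjamini-Hochberg adjustment over all probe sets. Calls also needed a 2-fold difference, except for genotype. The scripts were tested on simulated data. Pairing rests on the label numbers: 8 of 12 liver arrays correlated best, after removal of group means, with the fat array of their number (r from 0.0044 to 0.075). The number of arrays limits the precision.

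Genes named were the 12 largest differences each way among called genes brighter than the median probe set, as many as 4 members called in the prevailing direction of each of 39 lists (26 of function, 13 of cell types) and 2 against it, both genes of listed pairs, 19 set genes, and 5 genes each way for feeding or of smallest p for genotype, 207 genes in all. The members and lists were chosen with earlier results of these data known. Alternatives were other scalings, a signal filter, 32 added before log2, other blocks, each genotype alone, each replicate left out, other probe sets, and fits without the fat arrays that stood apart; those without muscle-rich, macrophage-rich and low fatty acid synthesis arrays were added after seeing the data. No sequences were used.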

Additional observations from a re-analysis of the deposited data

Results flagged for a closer look

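Each of 207 named genes was looked at in 4 groups of 6 arrays, fat and liver of N298 and D298 gilts, for an array whose gap to its nearest neighbour took up most of the range of its group. This was so in 73 of 828 such groups, and the smallest gap flagged was 0.625 of the range. About 1 in 20 would be flagged among independent, normally distributed values. Genes on an array are not independent, with 12 of the 73 from 1 fat array, so the count cannot be set against that rate. All values in the next 4 paragraphs are log2 signals, and a range in brackets is that of the other 5 arrays of the group.

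The fat of D298 replicate 1 accounted for 12 of the 73, all of them low. ME1, malic enzyme, stood at 12.53 there (13.88 to 14.61), ACACA at 6.64 (8.56 to 9.17), FASN at 13.80 (14.30 to 14.59) and the citrate carrier SLC25A1 at 12.46 (13.55 to 14.09). The fructose transporter SLC2A5 was at 7.52 (10.30 to 11.14), LPL at 13.03 and HK1 at 10.98. Pentose phosphate enzymes were low in the same array, with PGD at 11.65, TKT at 13.18 and TALDO1 at 13.19, as were ALAD at 9.17 and BDH1 at 5.08. What set this gilt apart was not tested.

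The fat of D298 replicate 4 had 7. High were ALB at 12.87 (6.72 to 7.79), SPP2 at 6.91 (1.22 to 2.39), APOC2 at 8.11, APOA2 at 7.92 and TTR at 8.47, and low were PLIN2 at 8.14 and SUCLG2 at 10.96. The fat of N298 replicate 1 was high for 3 macrophage genes, C1QA at 11.80 (9.50 to 9.94), C1QC at 13.12 (10.80 to 11.20) and CD14 at 8.54 (6.94 to 7.49), and low for SUCLG2 at 11.14. That of N298 replicate 3 had CEBPA at 9.27, IGF1R at 8.12, RARRES2 at 10.07 and HSP90B1 at 12.30, the last one high. Single fat arrays of other gilts stood off for ACTA2 at 11.99 and IGF1 at 8.89 (N298 replicate 6), PCK2 at 5.63 and SULT1E1 at 1.71 (N298 replicate 4), and FOXA2 at 0.28 and IGFBP1 at 3.05 (N298 replicate 5), all low. KRT19 was high at 5.51 in D298 replicate 2, and FADS2 was low at 2.16 in D298 replicate 6.

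Among liver arrays, D298 replicate 6 had 8: the plasma protein genes FGG at 15.33 (14.93 to 15.05), PLG at 15.26, CFB at 14.99 and C4BPB at 13.65 were high, and NSDHL at 10.12, DLAT at 7.94, IGFBP6 at 4.09 and F3 at 3.07 were low. In the liver of N298 replicate 5 the fatty acid genes ELOVL6 at 10.73 (12.98 to 13.85) and SCD at 11.81 (13.24 to 14.04) were low together, as were PPARGC1A at 8.78 and BDH1 at 8.11, while HSP90B1 at 14.14 (12.93 to 13.38) and PC at 11.90 were high. In D298 replicate 1 CYP7A1 was low at 7.13 (10.57 to 11.44), as were BHMT at 13.36, RXRG at 3.83 and SAL1 at 3.43, and TEK was high at 11.13.

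N298 replicate 6 had HNF4A high at 13.33 (12.46 to 12.65), and HK1 at 8.76, PLIN2 at 7.26, CYP2C36 at 4.73 and BCAT2 at 4.46 low. N298 replicate 3 had PGD high at 9.60, and ACAA2 at 12.77, SPP2 at 14.35 and LPL at 5.17 low. The erythroid genes ALAS2 at 8.52 (10.32 to 10.74) and HBM at 7.56 (8.54 to 9.01) were both low in N298 replicate 1. The remaining liver values were high for APOB at 15.07 and PCK2 at 12.02 (N298 replicate 2), CLDN5 at 9.23 (D298 replicate 5) and KCNIP2 at 4.17 (D298 replicate 2). They were low for F2RL2 at 1.59 (N298 replicate 4), COL1A2 at 8.64 and MYL1 at 3.11 (D298 replicate 5), and APOD at 3.80 (D298 replicate 2).

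For 10 genes the fat minus liver difference changed between fed and fasted gilts by the largest terms named for feeding. The term, fed minus fasted, was 4.32 for KCNIP2, 3.81 for PGLYRP2, 3.61 for CKB, 3.33 for SLC25A1 and 3.06 for CYP2C36. It was -3.71 for CYP2B22, -2.91 for IL6R, -2.63 for AKAP1, -2.54 for SQLE and -2.46 for TXLNB. Each passed limma's test over all probe sets, on 12 fed and 12 fasted gilts. The terms of KCNIP2, CYP2C36, IL6R, AKAP1 and TXLNB rested at least in part on dim signals, as given above.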

How the results depend on the processing

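The number of probe sets called between fat and liver was 7657. It was 7674 with no replicate block, 7726 with the gilt as a random block and within 1.5 times of 7657 under other scalings, 32 added, other moderation, array weights, either genotype alone and every set of arrays left out. The lowest of these counts was 5204, with 32 added, over the same probe sets. The number called came to 14706 with no fold threshold and to 2905 at 4-fold or more. When only the brighter probe sets were tested it was 5063, with 3166 higher in fat. That filter leaves out dim probe sets before testing, so 5063 is not on the same base as 7657. Leaving out each replicate number in turn gave 7431 to 7669 calls, 4641 to 4882 higher and 2723 to 2822 lower in fat. With or without the replicate block the direction of all 191 named genes called was the same. The within-gilt correlation was 0.069, and fat and liver arrays of the same number had r of 0.0044 to 0.075, against a median of -0.0088 for other numbers. Centring moved the median difference by 0.29 and quantile normalization by 0.19, and the share of calls higher in fat from 63.2% in the deposited scaling to 47.0% and 54.0%.

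For the term on feeding, 776 calls became 468 with 32 added, 723 with no replicate block and 821 with a random block, and leaving out a replicate number gave 622 to 892. Positive terms numbered 566 after centring, against 359, and 323 to 421 without a replicate number. Negative terms numbered 236 after centring, 259 after quantile normalization, 236 among the brighter probe sets and 179 with 32 added, against 417, and 288 to 471 without a replicate number. The genotype term gave 0 calls at an adjusted p under 0.05 in limma under all 13 alternatives. In the main fit 1197 probe sets had an unadjusted p under 0.05, about the share of 0.05 expected where none differs. The brightest 10 probe sets held 1.79% of the signal in fat and 2.04% in liver, the brightest 1000 held 49.5% and 57.5%, and the brightest 100 ranged from 13.3% to 13.6% in fat and from 15.5% to 15.8% in liver without a replicate number.

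Of 191 named genes called, 0 changed direction in 20 alternatives on the same probe set, and 19 lost the call in at least 1, namely CEBPA, ESAM, LDHA, PLIN2, PFKL, IGF1R, MS4A2, CD3D, LCK, KRT19, AKAP1, CNN1, COPB2, DIO2, HSP90B1, IL6R, SLA-DOA, and SCD and PDGFRB, both at 0.996 after centring. Of 82 other probe sets of 62 called genes 58 were called the same way, 23 were not called and 1, of TEK at 1.38, was called the opposite way. Others of opposite sign, none called, were ACACA at -0.27, CEBPA at -0.81, DCN at -0.77, IGF1R at -0.75, SLC2A4 at -0.18, ARG2 at 0.66, CD163 at 0.66, MSMO1 at 0.35 and SLA-DMA at 0.27. Among uncalled genes, other probe sets of the opposite sign were called lower for IGF1 at -1.16 and PPARA at -2.82, and not called for IGF2 at 0.25 and 0.73. DGAT1 was at -0.067 after centring, MC4R at -0.12 in N298 gilts and -0.29 without the 6 muscle-rich arrays, and MLN at 0.72 in D298 gilts. Of 78 counts over lists 14 moved by over 1.5 times in at least 1 alternative, and the causes were not tested.

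Signals near the dim end of an array set the size of the largest differences, as the values with 32 added show. The fat depot was not named, the tissues were bulk, and the array held 6765 genes with a single symbol.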

Other observations

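The spread among gilts differed between the tissues for some groups of genes. Over all 23935 probe sets the SD of log2 signal within genotype was larger in fat for 42.5%, with a median of 0.38 in fat and 0.43 in liver. For oxidative phosphorylation genes, the subunits of the respiratory chain and ATP synthase, it was larger in fat for 27 of 27, with a median of 0.30 in fat and 0.16 in liver. On the same fat arrays the mean log2 signal of 9 skeletal muscle markers ran from 4.19 to 12.79, and its part in this spread was not tested. It was larger in fat for 16 of 20 genes of the tricarboxylic acid cycle, with medians of 0.29 in fat and 0.18 in liver, and for 10 of 12 genes of cholesterol synthesis and uptake, with 0.44 in fat and 0.30 in liver. Among 20 plasma carriers it was larger in fat for 18, with 1.34 in fat and 0.16 in liver, and 3 fat arrays carried hepatocyte transcripts. The 7 adipocyte markers ran the other way, with a larger SD in fat for 1 of them and medians of 0.26 in fat and 0.78 in liver, where their signals are dim. These are descriptions of the arrays with no test of the spread.

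IGF2, an insulin-like growth factor, was represented by 13 probe sets. Its brightest was just short of the 2-fold line, and 7 of the 12 others were called lower in fat, at -1.13, -1.35, -1.37, -1.47, -1.84, -2.47 and -8.47. The probe set at -8.47 (SE 0.13, adjusted p = 4.55e-18 in limma) had a mean log2 signal of 2.75 in fat and 11.22 in liver, so that its fat signal lay at the dim end. Which transcripts each of these probe sets reads was not examined here.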
